A study of Homo sapiens with 6 samples.

Results

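The genes described here carry the signal from receptors of the TNF family to the IκB kinases (IKK), with weight on the alternative NF-κB pathway. The set holds 10 genes, chosen by name: the receptors LTBR and TNFRSF12A, the adaptors TRAF2 and TRAF3, the ubiquitin ligases BIRC2 and BIRC3, and the kinases MAP3K14, CHUK, IKBKB and MAP3K7. A feature of the array with 1 gene symbol was found for 8 of the 10 genes, out of 22411 genes in all. TRAF2 and BIRC3 were not matched to such a feature and were not analysed here. RNA came from RH30 cells, an established line from a human alveolar rhabdomyosarcoma, in 2 groups. RH30-IκBα SR cells (3 arrays) stably express the IκBα super repressor (SR), an IκBα that resists degradation and holds classical NF-κB in the cytoplasm, and RH30-vector cells (3 arrays) were infected with the empty retroviral vector. Both lines grew in the same serum-containing medium with no cytokine named for the array samples, and the sources used here do not say whether each line was a pool of infected cells or 1 clone. Each group was cultured in triplicate, and all p-values here reflect variation among cultures of 1 line per group, not among separate infections. The arrays were of the Human Transcriptome type, the values are log2 expression made with RMA, and 3 arrays per group limit the precision of every value.

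In the classical pathway, IKKβ (IKBKB) within the IKK complex phosphorylates IκBα, which is then degraded and frees p65-containing dimers. In the alternative pathway, NF-κB inducing kinase (NIK, MAP3K14) activates dimers of IKKα (CHUK), and the p100 precursor is processed to p52, the partner of RelB. In resting cells TRAF3 bridges NIK to a complex of TRAF2 and the ligases cIAP1 (BIRC2) and cIAP2 (BIRC3), which mark NIK for degradation, and receptors such as LTBR and TNFRSF12A (Fn14) relieve this block when they bind their ligands. Much of this control acts on protein, which arrays do not measure.

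Promoter windows from RefSeq (GRCh38.p14), each from 250 bases before to 50 bases after a gene's start, are shown for the 3 genes with the largest changes among those that passed the test. Windows were found for 8 of the 10 genes. Capitals mark a match to the κB consensus, the 10-base sequence bound by NF-κB dimers, which was searched on both strands. TRAF3 lies at chr14:102777199-102777498 (plus strand), MAP3K14 at chr17:45316971-45317270 (minus strand) and the upstream start of BIRC2 at chr11:102346964-102347263 (plus strand).
TRAF3: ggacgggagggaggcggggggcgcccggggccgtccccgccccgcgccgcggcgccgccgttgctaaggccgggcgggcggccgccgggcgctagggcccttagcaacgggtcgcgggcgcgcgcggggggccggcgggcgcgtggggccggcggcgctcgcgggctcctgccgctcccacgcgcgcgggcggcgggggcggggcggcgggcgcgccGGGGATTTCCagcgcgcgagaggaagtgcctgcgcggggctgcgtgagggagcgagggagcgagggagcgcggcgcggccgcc
MAP3K14: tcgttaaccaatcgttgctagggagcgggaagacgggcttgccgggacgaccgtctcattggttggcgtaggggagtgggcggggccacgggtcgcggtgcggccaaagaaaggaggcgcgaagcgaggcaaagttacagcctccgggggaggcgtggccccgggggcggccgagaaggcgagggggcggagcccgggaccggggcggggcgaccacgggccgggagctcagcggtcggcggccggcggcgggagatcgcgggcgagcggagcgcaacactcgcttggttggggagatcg
BIRC2: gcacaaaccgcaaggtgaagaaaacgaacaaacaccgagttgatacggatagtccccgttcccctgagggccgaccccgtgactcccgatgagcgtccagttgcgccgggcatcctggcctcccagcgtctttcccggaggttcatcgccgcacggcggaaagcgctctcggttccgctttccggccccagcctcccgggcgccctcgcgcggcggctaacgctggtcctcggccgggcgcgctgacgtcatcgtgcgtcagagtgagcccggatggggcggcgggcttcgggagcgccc
The TRAF3 window held 1 match, GGGGATTTCC on the plus strand, which begins 33 bases before the gene's start. The windows of MAP3K14 and of both starts of BIRC2 held none, nor did those of CHUK, MAP3K7, LTBR and TRAF2, while that of BIRC3 held 2. The consensus was present in 5.91% of 35116 windows of this length, and in at least 1 window of 7.09% of 27305 genes. The GC box GGGCGG, on either strand, was found 6 times in the TRAF3 window and 4 times in the MAP3K14 window, and 45.0% of windows hold it. G and C made up 86.0% of the TRAF3 window, against a median of 58.7% over all windows. These matches describe letters and do not show binding.

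Of the 8 measured genes, 5 passed the test between RH30-IκBα SR and RH30-vector cells, MAP3K14 and CHUK higher and TRAF3, BIRC2 and MAP3K7 lower. The test was limma's moderated test, with p-values adjusted over all 22411 genes by the Benjamini-Hochberg method and a threshold of 0.05. Over all genes 18.3% passed it, 9.76% higher (2188 genes) and 8.58% lower (1922 genes). All 8 genes lay at or above the median gene. With genes under the median gene left out, 2455 genes were higher and 2066 lower. These calls outnumber the 2188 and 1922 over all 22411 genes. The share that passed was thus well above 18.3% among genes of such a level. In that fit 3 of the 8 genes were higher and 3 lower, and 18.3% is too low a share to set beside them. The groups of 3 arrays did not overlap in 7 of the 8 genes, against 29.6% of all genes. That share includes genes under the median gene and 1563 genes with the same value on all arrays, which cannot be apart. Among the 7, LTBR had groups only 0.02 apart. For a gene without overlap the exact 2-sided permutation test gives p = 0.1, the smallest that 3 arrays against 3 allow. The median log2 fold change of the 8 genes was 0.04, against 0.00 over all genes. The genes were chosen with earlier results of these arrays known, so these counts are a description. In bulk RNA, less RNA per cell and fewer cells that make it cannot be told apart.

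**Figure D1:**
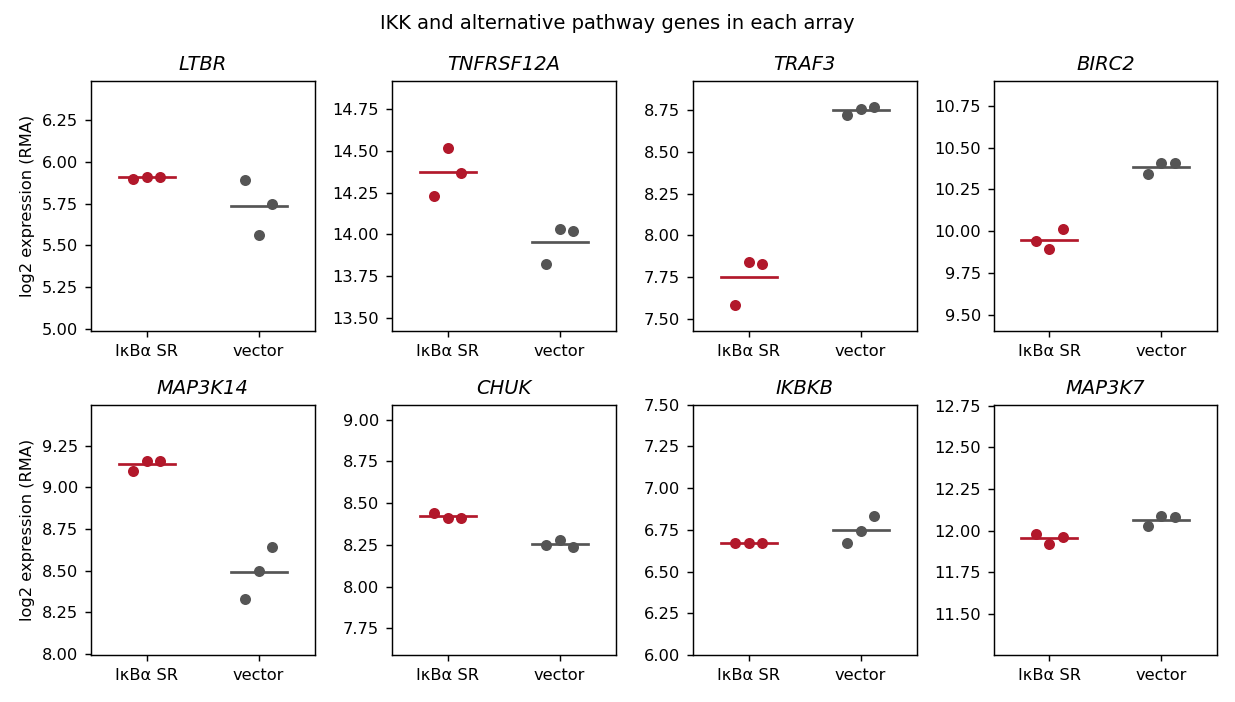
Log2 expression (RMA) of the 8 measured genes on each array, with RH30-IκBα SR arrays in red on the left and RH30-vector arrays in gray on the right of each panel. Points are single arrays, horizontal lines are group means, and every panel spans the same range; the groups overlap for IKBKB and for no other gene.

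NFKBIA, the gene of IκBα, was 13.62 ± 0.10 in RH30-IκBα SR cells and 11.62 ± 0.04 in RH30-vector cells (SD, n = 3 each). It was higher in the line labelled as carrying the transgene, and array signal from the transgene and from the cell's own gene cannot be told apart. The medians of the arrays lay between 4.344 and 4.398, and the median gene had a mean of 5.13. All 8 markers of this muscle-lineage tumor had means at or above the median gene, from 6.11 to 15.71. In RH30-IκBα SR cells 4 were higher (MYOD1, DES, CDH15 and FGFR4) and 1 lower (MYOG, log2 fold change -1.17), where 18.3% of all genes were called. MYOG kept its call in all 18 alternative settings, MYOD1 in 12 and FGFR4 in 7. The 5 measured blood cell markers lay between 3.53 and 4.53, below the median gene, with PTPRC at 3.56 in every array, and 1 of them, ITGAM, was lower by 0.24. None of the 5 epithelial markers was called. Of these, 4 lay below the median gene, with EPCAM at 3.89 in every array, while KRT8 lay above it at 6.60 in RH30-IκBα SR cells and 6.94 in RH30-vector cells, with groups that did not overlap. Between 16.8% and 31.7% of genes had identical values in any pair of arrays, which also touches 3 of the genes described here (MAP3K14, IKBKB and LTBR). In 6147 of 22411 genes all arrays of a group were identical, and these genes enter the spread that limma shares across genes. Without them the standard error of CHUK rose from 0.017 to 0.035 (adjusted p = 0.020 from limma). That of MAP3K7 rose from 0.021 to 0.037, and its call was lost (adjusted p = 0.086 from limma). The cause of the identical values was not tested.

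Neither receptor gene passed the test. TNFRSF12A, which encodes Fn14, the receptor of the cytokine TWEAK, was 14.23, 14.52 and 14.37 in RH30-IκBα SR cells and 13.82, 14.03 and 14.02 in RH30-vector cells. Every RH30-IκBα SR array was above every RH30-vector array. The difference of the means was 0.42 on the log2 scale (standard error 0.102, 95% interval 0.15 to 0.69), with an adjusted p = 0.058 from limma. The call was close to the threshold: 5 of 18 alternative settings placed it below 0.05, and the adjusted p ranged from 0.023 to 0.17 from limma and the methods' t-test.

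LTBR encodes the lymphotoxin β receptor, which in lymphoid tissue sets up stromal cells through the alternative pathway. Its values were 5.90, 5.91 and 5.91 in RH30-IκBα SR cells and 5.89, 5.56 and 5.75 in RH30-vector cells. The arrays of RH30-IκBα SR cells lay just above the highest RH30-vector array. LTBR thus had a log2 fold change of 0.17, with a 95% interval of -0.06 to 0.40 that holds 0 (adjusted p = 0.33 from limma). It was 0.25 without RH30-vector replicate 1 and 0.09 without RH30-vector replicate 2. RH30-IκBα SR replicates 2 and 3 held identical values for LTBR.

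TRAF3, the adaptor that brings NIK to the ligases that mark it for degradation, showed the largest change of the set. Its expression was 7.58, 7.84 and 7.83 in RH30-IκBα SR cells and 8.72, 8.76 and 8.77 in RH30-vector cells. The groups were 0.88 apart at their nearest arrays, and RH30-IκBα SR replicate 1 was the lowest of all. The mean was 7.75 ± 0.15 in RH30-IκBα SR cells and 8.75 ± 0.03 in RH30-vector cells (SD, n = 3 each), a ratio of 0.501 on the linear scale. TRAF3 fell by 1.0 on the log2 scale, with a 95% interval of the fold change from -1.21 to -0.79 (standard error 0.080, adjusted p = 0.0019 from limma). A decrease at least as large was listed for 220 genes, or 0.982% of all genes.

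BIRC2, which encodes cIAP1, a ubiquitin ligase of the complex that degrades NIK, was also lower. It was 9.94, 9.89 and 10.01 in RH30-IκBα SR cells and 10.34, 10.41 and 10.41 in RH30-vector cells, with no overlap. Its log2 fold change was -0.44 (standard error 0.039, 95% interval -0.55 to -0.34, adjusted p = 0.0025 from limma), or 0.735 times the level in RH30-vector cells. The decrease was smaller than 1.5-fold, so BIRC2 was not called where that size was required as well, a rule that 6.42% of all genes passed and of these 8 only TRAF3 and MAP3K14.

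MAP3K14, the gene of NIK, the kinase at the head of the alternative pathway, was higher. It was 9.10, 9.16 and 9.16 in RH30-IκBα SR cells and 8.33, 8.50 and 8.64 in RH30-vector cells. RH30-IκBα SR arrays were close together, with identical values for replicates 2 and 3, while RH30-vector arrays were more spread. The mean was 9.14 ± 0.03 in RH30-IκBα SR cells and 8.49 ± 0.16 in RH30-vector cells (SD, n = 3 each). This 1.57-fold increase is 0.65 on the log2 scale (standard error 0.086, 95% interval 0.42 to 0.88, adjusted p = 0.0086 from limma). An increase at least as large was listed for 732 genes, or 3.27% of all genes. NIK protein is held low by degradation in resting cells, and its level was not measured here.

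CHUK, the gene of IKKα, the kinase that NIK activates, was 8.44, 8.41 and 8.41 in RH30-IκBα SR cells and 8.25, 8.28 and 8.24 in RH30-vector cells. The groups did not overlap, and the change was small beside those of TRAF3 and MAP3K14. CHUK rose 1.12-fold, by 0.16 on the log2 scale (standard error 0.017, limma adjusted p = 0.0040). A further quantile normalization of the arrays reduced it to 0.09 (adjusted p = 0.034 from limma).

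IKBKB, the gene of IKKβ, the main kinase of IκBα, did not pass the test. It was 6.67 on every array of RH30-IκBα SR cells and 6.67, 6.74 and 6.83 in RH30-vector cells. RH30-vector replicate 1 held the same deposited value as RH30-IκBα SR replicates 1 and 3, so the groups overlapped. Its log2 fold change was -0.08 (95% interval -0.19 to 0.04, adjusted p = 0.38 from limma), and it was -0.11 without RH30-vector replicate 1 and -0.04 without RH30-vector replicate 3.

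MAP3K7 encodes TAK1, which activates the IKK complex in the classical pathway. It was 11.98, 11.92 and 11.96 in RH30-IκBα SR cells and 12.03, 12.09 and 12.08 in RH30-vector cells. MAP3K7 fell by 0.11 on the log2 scale (standard error 0.021, limma adjusted p = 0.027). The groups did not overlap, but of the 5 calls this one was lost under the most alternatives. It held in 9 of 18 alternatives, and without any 1 of RH30-IκBα SR replicates 1, 2 and 3 or RH30-vector replicates 2 and 3 it was lost, with adjusted p-values from limma up to 0.093. Its log2 fold change was between -0.13 and -0.10 with 1 array left out, and -0.19 after a further quantile normalization.

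**Figure D2:**
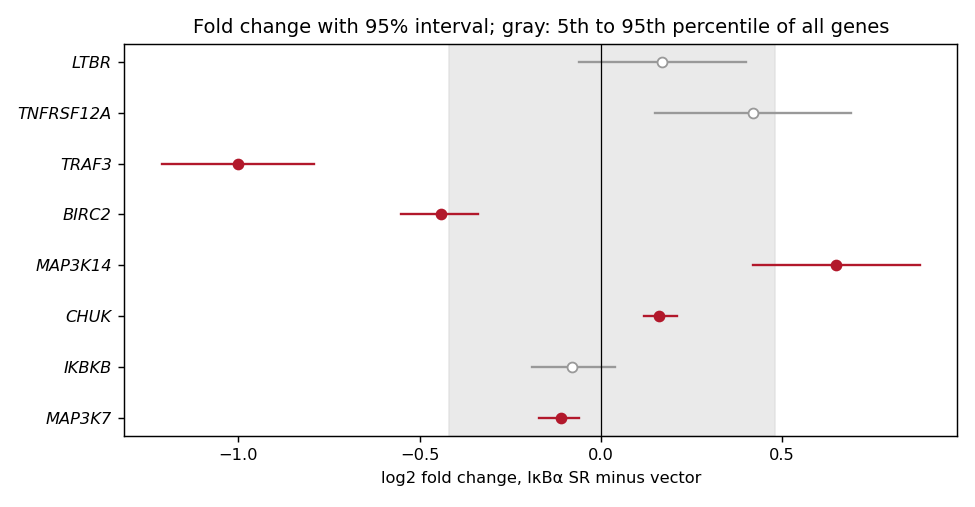
Log2 fold changes (RH30-IκBα SR minus RH30-vector) of the 8 measured genes with 95% intervals from limma, ordered from receptors to kinases. Filled red points passed the test and open gray points did not; the gray band spans the 5th to 95th percentile of all genes, -0.42 to 0.48, and TRAF3, BIRC2 and MAP3K14 lie outside it.

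TRAF3, BIRC2 and MAP3K14 kept their direction in all 18 alternatives, which included leaving out each array in turn. Their direction was largely fixed beforehand. Several alternatives leave the fold change as it is, and groups that do not overlap keep their sign when 1 array is left out. TRAF3 ranged from -1.04 to -0.91, BIRC2 from -0.50 to -0.41 and MAP3K14 from 0.57 to 0.73. TRAF3 and MAP3K14 passed the test in all 18, with adjusted p-values from limma of up to 0.022 and 0.045, and BIRC2 in 17. Each of the 8 genes is read by 1 feature, so features of 1 gene could not be set against each other.

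**Figure D3:**
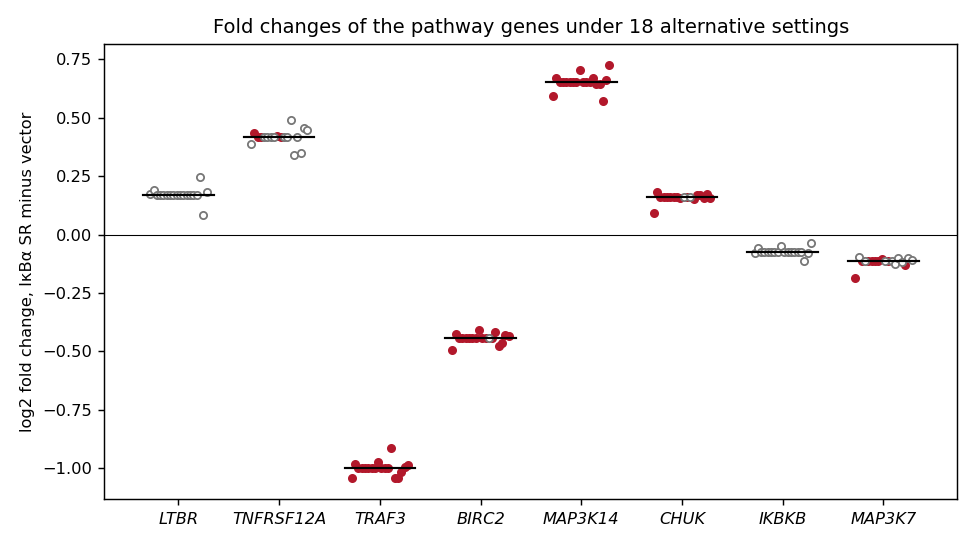
Log2 fold changes (RH30-IκBα SR minus RH30-vector) of the 8 genes under each of 18 alternative settings, shown side by side for each gene. Filled red points passed the test under that setting, open points did not, and black lines give the value as reported; TNFRSF12A, BIRC2, CHUK and MAP3K7 show both kinds of point.

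By the smallest root mean square difference of values centered on the mean of all 6 arrays, the genes most like MAP3K14 were ALPK3 (0.0301), FBN2 (0.0365) and GPAM (0.0435), and those most like TRAF3 were COTL1 (0.0430), CAPNS1 (0.0450) and FAR2 (0.0553). Genes at or above the median level were searched, and the log2 fold changes of these were 0.64, 0.61 and 0.60 beside MAP3K14 and -0.99, -1.02 and -0.98 beside TRAF3. The genes were picked on the same arrays by these values, so similar fold changes follow from the choice.

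Each gene was also set beside the 10 nearest protein-coding genes on either side whose mean was at or above the median gene. Over all genes 9.76% were higher and 8.58% lower, and both shares were larger among genes at or above the median gene. BIRC2 lies on chromosome 11 in a region where most genes were higher. Of its 20 neighbors, from KDM4D to SLC35F2, 13 were higher and 1 was lower (SRSF8, -0.48), with a median log2 fold change of 0.56. The nearest of these on either side, YAP1 (1.23) and TMEM123 (0.88), were both higher, while BIRC2 itself was at -0.44.
MAP3K7 on chromosome 6 likewise lay among genes that were higher, 11 of 20 with none lower and a median of 0.26, against -0.11 for MAP3K7.
Around MAP3K14 on chromosome 17, 8 of 20 neighbors were lower, among them FMNL1 (-1.20) next to it, and none was higher. The median was -0.22, and MAP3K14 at 0.65 was above all 20.
TRAF3 on chromosome 14 had a neighborhood with a median of 0.01, in which 14 of 20 genes were not called. TNFAIP2, a TNF-induced gene at the second place after TRAF3, was at -1.23 and was the only neighbor with a larger decrease.
CHUK, LTBR, TNFRSF12A and IKBKB had neighborhoods with medians between 0.00 and 0.06. The part of regional differences in the values of BIRC2, MAP3K7 and MAP3K14 was not tested.

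**Figure D4:**
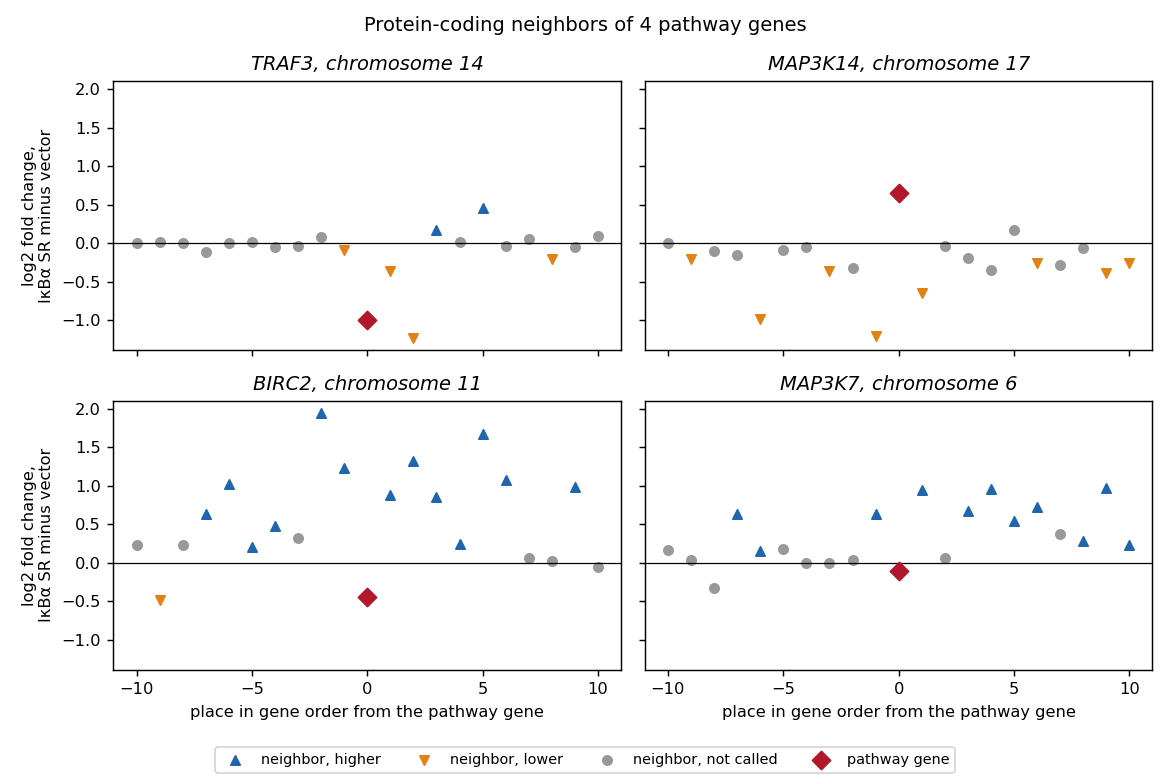
Log2 fold changes (RH30-IκBα SR minus RH30-vector) of the 10 protein-coding neighbors on either side of TRAF3, MAP3K14, BIRC2 and MAP3K7, by place in gene order. Triangles mark neighbors that passed the test, circles those that did not, and red diamonds the pathway gene, which for MAP3K14, BIRC2 and MAP3K7 has the opposite sign to the median of its neighbors.

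Other genes of the pathway were taken from 9 lists by role, with 47 of 55 genes measured. Of these, 5 were higher and 10 lower in RH30-IκBα SR cells, 31.9% in all against 18.3% of all genes, and their median log2 fold change was 0.00. Of the 47 genes, 35 lay at or above the median gene. Genes of that level alone gave 2455 higher and 2066 lower calls, more than the 2188 and 1922 over all 22411 genes. The share that passed at that level was thus well above 18.3%, and 31.9% cannot be read as an excess for genes of this level. With any 1 array left out the count of higher genes was 2 or 3 (2 without each RH30-IκBα SR array or RH30-vector replicate 2, and 3 without RH30-vector replicate 1 or 3). Over all genes the count of higher genes also fell, to between 1629 and 2010, against 2188 with all arrays.

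Of 6 measured genes of p100 processing and RelB, 3 were lower (NFKB2, RELB and FBXW11) and none was higher. NFKB2, which encodes the p100 precursor and is itself a target of NF-κB, was 6.31, 6.40 and 6.49 in RH30-IκBα SR cells and 7.59, 7.55 and 7.48 in RH30-vector cells. The groups were 0.98 apart at their nearest arrays, and NFKB2 fell by 1.14 on the log2 scale (standard error 0.059, limma adjusted p = 5.5e-04). RELB, the partner of p52, was 5.04, 4.88 and 4.94 in RH30-IκBα SR cells and 5.45, 5.31 and 5.32 in RH30-vector cells (log2 fold change -0.40, adjusted p = 0.013 from limma). Its level lay near the median gene, and without RH30-IκBα SR replicate 3 the adjusted p was 0.060 from limma. FBXW11, a paralog of the ligase subunit BTRC that recognizes phosphorylated IκBα and p100, was 10.07, 10.09 and 10.01 in RH30-IκBα SR cells and 10.52, 10.58 and 10.59 in RH30-vector cells (log2 fold change -0.51, adjusted p = 8.7e-04 from limma). BTRC itself had a log2 fold change of 0.03 (95% interval -0.02 to 0.08), and CUL1 and SKP1 of the same ligase were at -0.01 and 0.03.

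**Figure D5:**
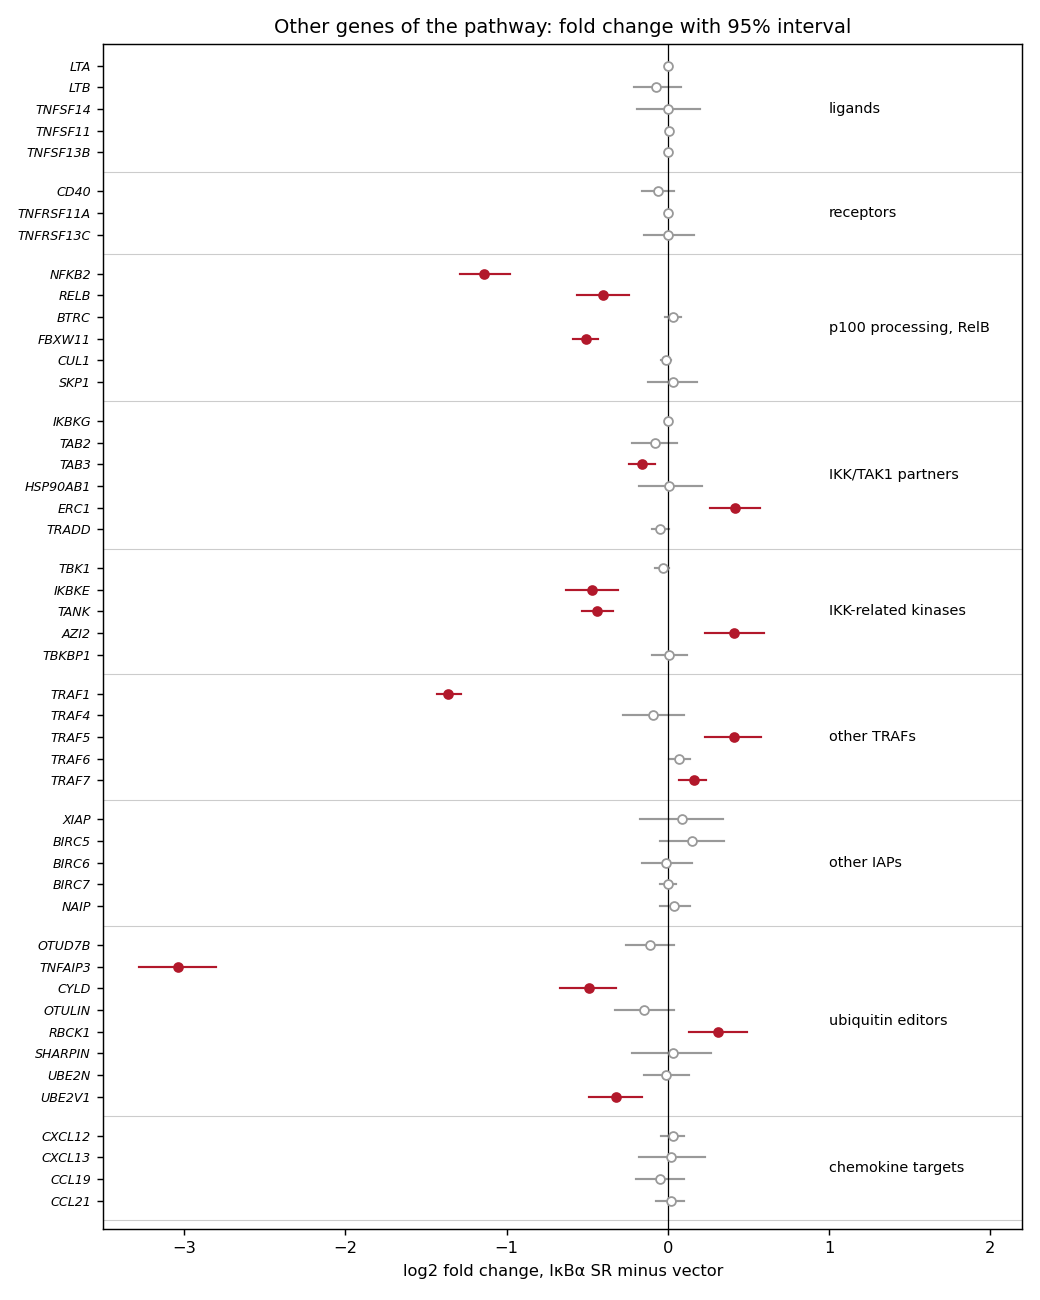
Log2 fold changes (RH30-IκBα SR minus RH30-vector) of the 47 other pathway genes with 95% intervals from limma, grouped by role. Filled red points passed the test and open gray points did not; TNFAIP3, TRAF1 and NFKB2 show the largest decreases, and ligands, receptors, other IAPs and chemokines hold no called gene.

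Among the other TRAF adaptors, 1 of 5 was lower and 2 were higher. TRAF1, a TRAF without a RING domain that is induced by NF-κB and binds TRAF2, was 5.60, 5.69 and 5.63 in RH30-IκBα SR cells and 7.01, 6.98 and 6.99 in RH30-vector cells. Both groups were tight, and TRAF1 fell by 1.36 on the log2 scale (limma adjusted p = 5.8e-05). TRAF5 was higher by 0.41 on the log2 scale and TRAF7 by 0.16. The calls of TRAF5 and TRAF7 held in 13 and 8 of 18 alternatives. TRAF5 lost its call without any 1 of the RH30-IκBα SR arrays (adjusted p up to 0.069 from limma). TRAF7 lost it without each array other than RH30-IκBα SR replicate 3 (adjusted p up to 0.12 from limma). TRAF4 and TRAF6 were at -0.09 and 0.07 and did not pass the test.

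Enzymes that add or remove ubiquitin in the pathway included the largest change among the lists. TNFAIP3, which encodes A20, an NF-κB-induced ubiquitin-editing brake on IKK activation, was 6.91, 7.25 and 7.11 in RH30-IκBα SR cells and 10.13 on every array of RH30-vector cells. TNFAIP3 fell by 3.04 on the log2 scale (standard error 0.092, limma adjusted p = 1.4e-04), and because the RH30-vector values were identical, its error rests on the RH30-IκBα SR arrays and the spread shared across genes. CYLD, a deubiquitinase that also restrains IKK, was lower by 0.49 and UBE2V1, a cofactor of the conjugating enzyme UBE2N, by 0.32, while RBCK1, which encodes HOIL-1 of the linear ubiquitin ligase, was higher by 0.31. UBE2V1 and RBCK1 each held their call in 10 of 18 alternatives, with adjusted p-values up to 0.11 and 0.13 from limma and the methods' t-test. UBE2V1 lost it without RH30-IκBα SR replicate 1 or 2 or RH30-vector replicate 1 or 3, and RBCK1 without each array other than RH30-IκBα SR replicate 2. OTUD7B, a deubiquitinase of TRAF3, was at -0.11 (95% interval -0.26 to 0.04). In all, 3 of 8 measured genes of this list were lower and 1 was higher.

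Of the 5 kinases and adaptors related to IKK, IKBKE was lower by 0.47 and TANK by 0.44, and AZI2 was higher by 0.41. IKBKE encodes IKKε, and TANK and AZI2 (NAP1) encode adaptors of IKKε and TBK1. The call of AZI2 was lost without RH30-IκBα SR replicate 2 or 3 or RH30-vector replicate 2 (adjusted p up to 0.080 from limma). TBK1 was 9.99 on each RH30-IκBα SR array and 10.00, 10.02 and 10.06 in RH30-vector cells, and did not pass the test. In the IKK and TAK1 complexes, ERC1 (ELKS), a regulatory protein of the IKK complex, was higher by 0.42 and TAB3, a ubiquitin-binding partner of TAK1, was lower by 0.16, a call lost without any 1 of the RH30-IκBα SR arrays or RH30-vector replicate 3 (adjusted p up to 0.096 from limma). IKBKG, the gene of the IKK scaffold NEMO, was listed at 5.14 on every array of both groups, near the median gene at 5.13. A value shared by all arrays was found for 1563 genes, and it does not show that the level was unchanged.

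No gene passed limma's test among 5 measured ligands, 3 other receptors, 5 other inhibitor of apoptosis (IAP) genes and 4 chemokine genes known as RelB and p52 targets, and none had an unadjusted p under 0.05 in limma or in the methods' t-test. The ligand and chemokine genes all had means under the median gene, from 3.26 to 4.63 for LTA, LTB, TNFSF14, TNFSF11 and TNFSF13B and from 3.23 to 4.66 for CXCL12, CXCL13, CCL19 and CCL21. CD40 and TNFRSF11A, receptors that can activate the alternative pathway, also lay under it, at 4.09 and 3.68 in RH30-IκBα SR cells and 4.15 and 3.68 in RH30-vector cells. The IAP genes were measured at or above the median gene, and XIAP had a log2 fold change of 0.09 (95% interval -0.17 to 0.34).

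The κB consensus was present in a promoter window of 11 of 44 pathway genes with a window. These included 3 of 9 lower genes (NFKB2, TNFAIP3 and CYLD), 0 of 5 higher genes and 7 of 24 genes that were not called, and 1 of 6 genes that were not analysed here. Such lists were built from NF-κB pathway genes, so these shares are not independent of the choice of genes.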

How the data were processed

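RNA of 3 RH30-IκBα SR and 3 RH30-vector cultures was hybridized to 1 array each. The table deposited by the authors holds log2 expression per feature from RMA (background correction, quantile normalization, probe summary), for which their notes list the Affymetrix Expression Console. The sources used here name neither versions nor a genome build. Of 70523 features, 23781 had 1 gene symbol, 1543 several and 45199 none listed. Symbols were updated with the RefSeq table of GRCh38.p14 (21497 by Entrez number), and the brightest feature of each gene over all 6 arrays was kept.

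Groups were compared (RH30-IκBα SR minus RH30-vector) by limma's lmFit and eBayes (limma 3.58.1, R 4.3.3), with Benjamini-Hochberg adjustment and no filter on level. The procedure was also run on simulated normal values. These held no identical values, so that run does not cover this trait of the arrays. The genes, lists and tests were chosen with earlier results of these data known. All 10 genes, NFKBIA, up to 3 called genes per list and direction, the genes of most similar profile and neighbors were named; marker genes and uncalled genes named lie outside this rule. Alternatives were quantile normalization, median centering, leaving out dim genes or genes with identical values, the mean of all features, every feature, platform symbols, trend and robust eBayes, weighting of arrays, a replicate block, a 1.5-fold threshold, the methods' t-test and each array left out.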

Additional observations from a re-analysis of the deposited data

How the results depend on the processing

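With the replicate number as a block (replicate block), 0 of the other pathway genes were higher (5 at an unadjusted p under 0.05 from limma) and 6 were lower, and over all genes 1327 were higher and 1123 lower, against 2188 and 1922 without it. The pathway genes whose calls were lost with the block were ERC1, AZI2, TRAF5, TRAF7, RBCK1, TAB3, IKBKE, CYLD and UBE2V1, with adjusted p-values from 0.058 (CYLD) to 0.13 from limma, among them 0.080 for IKBKE and 0.099 for ERC1. ERC1, IKBKE and CYLD kept their calls with each array left out in turn. The block changed the calls of CHUK, MAP3K7 and TNFRSF12A (adjusted p = 0.053, 0.16 and 0.032 from limma) and of no other gene among the 8. Deviations from the group means correlated at 0.118, -0.217 and -0.195 between arrays of equal number, so the numbers were not taken to pair the samples. Where 1.5-fold was the smallest change accepted, 1 of the 8 genes was higher (MAP3K14) and 1 lower (TRAF3), 0 other pathway genes were higher and 3 lower, and over all genes 820 were higher and 618 lower, as this rule is stricter by construction. The methods' t-test gave 3 higher pathway genes, and 1932 higher genes over all genes. With each array left out in turn, 2 to 3 pathway genes were higher. Over all genes the higher calls then also fell, to between 1629 and 2010, against 2188 with all arrays. The cause was not tested. TNFRSF12A passed the test after median centering, without dim genes, without genes with identical values, with array weights and with the block. No fold change of the 8 genes changed sign under any of the 18 alternatives, but many of these could not change it. Several alter only the test or the other genes in it. Where groups do not overlap, leaving out 1 array cannot change the sign. Values near the median gene or under it limit what RELB, IKBKG, the ligands and the chemokines can show.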
